A study of Phaseolus vulgaris with 18 samples.

Results

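Cytokinins are adenine-derived plant hormones that promote cell division and set the strength of tissues that draw in sugars. In Arabidopsis, isopentenyltransferases (IPT) make the precursor nucleotides, enzymes of the LONELY GUY (LOG) family release the active bases, cytokinin oxidases (CKX) degrade them, and purine permeases (PUP) carry bases across membranes. Histidine kinase receptors pass the signal through phosphotransfer proteins to response regulators. Type-B regulators (here ARR1, ARR2, ARR11, ARR12 and ARR14) switch on target genes, and type-A regulators are early targets that dampen the signal. Cytokinin response factors (CRF) are transcription factors acting beside the type-B regulators. In legume seeds, cytokinin is known from the liquid endosperm and the seed coat during early growth.

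The genes described here are those whose deposited description named a cytokinin, a response regulator, a purine permease, a lysine decarboxylase (the annotation of LOG proteins) or an isopentenyltransferase. Genes whose description held the term pseudo-response were left out. The genes kept numbered 85 of the 27420 genes in the table. By role there were 8 IPT, 12 LOG family, 12 CKX, 12 PUP, 11 type-A, 15 type-B and 4 type-C response regulator genes, and 9 CRF or cytokinin-responsive GATA genes. The remaining 2 were copies of TOC1, a clock gene whose description also holds the words response regulator. That description gives the symbols APRR1 and PRR1 too, but not the term pseudo-response, so both copies stayed in the list and its counts. The rule itself reads descriptions and uses no measured value.

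The study measured RNA by sequencing in grain and in pod of common bean, Phaseolus vulgaris 4004. Both tissues were taken at the stages 10 DAF, 15 DAF and 20 DAF (a term the labels leave unexplained, taken to mean days after flowering), with 3 libraries in each of the 6 groups and 18 in all. The labels name no treatment. Whether a group's libraries were made from different plants is not stated, and p-values therefore reflect the spread of these libraries alone, which could be technical. Values are TPM, a share of all transcripts in the library, which divides by transcript length so that levels of different genes can be set side by side. Read depth cannot be recovered from TPM and is unknown here.

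Each comparison came from a limma fit over all 18 libraries on log2(TPM + 1), a scale that understates the change of genes with low values. A gene was called when its Benjamini-Hochberg adjusted p was under 0.05 and its log2 difference at least 1 in size. Log2 differences below are on that scale and carry their standard error (SE), and every adjusted p printed is that of limma. The filter of at least 1 TPM in at least 3 libraries left 19861 genes and 50 of the 85 cytokinin genes. None of the 35 genes it removed exceeded 3.743 TPM in any library, and 7 of them were listed at 0 in all 18. A gene that passed only through its high group had to differ, so the counts below describe the 50 tested genes and not the whole list.

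Grain libraries shifted as a whole. The median over all tested genes was -1.08 on the log2 scale in grain at 20 against 10 DAF and -0.75 at 15 against 10 DAF, and grain was lower than pod by a median of -0.55 at 15 DAF and -1.18 at 20 DAF. In pod at 20 against 10 DAF the median was 0.10, and in grain against pod at 10 DAF it was 0.02. The counts and the main differences are therefore also given after median-ratio scaling, which brings the libraries to a common median ratio over genes present in all of them and takes most of such a shift away by construction ("after scaling" below). In that scaling these 6 medians lay between -0.11 and -0.01. Summed TPM of 12 storage cupin and oleosin genes, markers of the filling grain, went from 458 to 3152 per library in grain at 10 DAF to 110671 to 142364 at 20 DAF, and stayed at 34.0 to 119 in pod. For 48 genes of core histones and other dividing-cell markers, the summed TPM lay between 16261 and 19294 in young grain (10 DAF) and between 1612 and 3429 in late grain (20 DAF), while pod had sums of 3520 to 6690 and 3139 to 3568. For 34 light-harvesting genes, markers of green tissue, the sums went from between 4998 and 5935 to between 97.7 and 327 in grain, and from between 14028 and 36328 to between 3453 and 10985 in pod. For 47 seed coat flavonoid genes the sums in the grain libraries of 10 DAF were 1566 to 6310, in those of 15 DAF 443 to 1385 and in those of 20 DAF 142 to 461. The pod sums were 382 to 872 in the libraries of 10 DAF, 142 to 364 in those of 15 DAF and 180.0 to 4351 in those of 20 DAF. The part of these changes in the results below was not tested. In whole tissue, fewer cells of a type and less RNA per cell cannot be told apart. The pod 15 DAF replicate 3 column summed to only 436072 TPM, against 823001 to 999633 in the others. Pod 10 DAF replicate c2 and grain 20 DAF replicate 3 correlated better with a library of another group than with their own.

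The highest levels among the 85 genes belonged to transport in grain and activation in pod. Only 4 genes reached a group mean of 50 TPM: both genes described as PUP4, in grain, and both LOG1 genes named below, in pod. Of the other genes, 34 had every group mean under 1 TPM. Among the 78 genes with any value above 0, the highest group mean was in pod at 20 DAF for 28, in grain at 10 DAF for 21 and in pod at 10 DAF for 18, with pod at 15 DAF, grain at 20 DAF and grain at 15 DAF taking 6, 4 and 1. These counts use TPM as deposited, with the general shift in grain left in, and include genes near 0. The same counts over all genes are not given here, so they cannot be read as particular to this list.

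**Figure D1:**
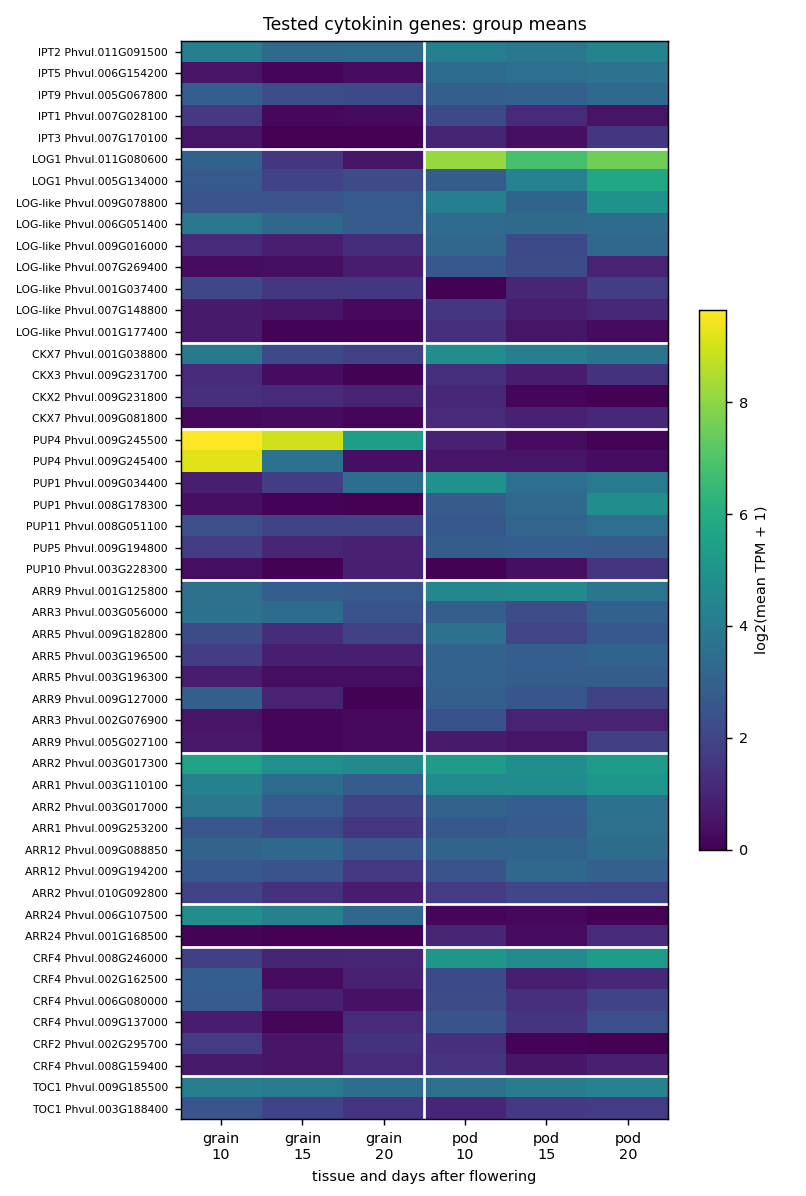
Group means of the 50 tested cytokinin genes as log2(mean TPM + 1), by colour, with rows grouped by role (white lines) and columns by tissue and days after flowering. The 2 PUP4 genes stand out in grain at 10 DAF, at 595 and 797 TPM, and the LOG1 gene Phvul.011G080600 in pod, at 115 to 285 TPM.

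Synthesis genes had group means of at most 19.2 TPM. The highest IPT was Phvul.011G091500, described as IPT2, an enzyme that in Arabidopsis modifies tRNA. It had 17.7, 15.3 and 16.3 TPM in grain at 10 DAF, 9.18, 10.5 and 7.87 at 15 DAF and 7.24, 12.2 and 9.67 at 20 DAF. In pod it had 14.6, 18.6 and 17 TPM at 10 DAF, 16, 14.7 and 9.43 at 15 DAF and 19.9, 16 and 21.6 at 20 DAF. None of the 7 comparisons called it. IPT9 (Phvul.005G067800), the other tRNA-type gene, ran from 3.39 ± 1.83 (SD, n = 3) TPM in grain at 20 DAF to 8.81 ± 1.99 in pod at 20 DAF. Together these tRNA-type genes made up 88.5% ± 7.23 of the summed IPT TPM in grain at 10 DAF and 61.4% ± 15.6 in pod at 10 DAF (SD, n = 3).

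The adenylate-type IPT5 gene Phvul.006G154200, a class that makes the precursors of active cytokinins, was higher in pod than in grain, where it was near 0. Its values in grain were 0.682, 0.108 and 0.438 TPM at 10 DAF, 0.112, 0.186 and 0 at 15 DAF, and 0.079, 0.190 and 0.439 at 20 DAF. Its values in pod were 12.6, 5.95 and 10.4 TPM at 10 DAF, 19.5, 7.75 and 3.87 at 15 DAF, and 17.4, 3.84 and 14 at 20 DAF. Every pod library lay above every grain library. Grain was lower at 10 DAF (log2 difference -2.88, SE 0.48, adjusted p = 8.09e-05), at 15 DAF (-3.12, SE 0.48, adjusted p = 3.52e-05) and at 20 DAF (-3.17, SE 0.48, adjusted p = 1.77e-05), and all 3 calls held after scaling. IPT1 (Phvul.007G028100) had 7, 0.921 and 2.55 TPM in pod at 10 DAF and 0.045, 0.525 and 0.737 at 20 DAF, a fall (log2 difference -1.43, SE 0.40, adjusted p = 0.0225) that was called after scaling too, at -1.35. It was not called without pod 10 DAF replicate c1 (-0.89) or pod 20 DAF replicate 1 (-1.22), nor in a fit of only the pod groups compared. Its fall in grain, from 2.07 ± 1.63 to 0.226 ± 0.130 TPM, was called as deposited (-1.20) and neither after scaling (-0.73) nor without grain 10 DAF replicate 1 (-0.80). IPT3 (Phvul.007G170100) stayed under 2 TPM in its group means, with 1.85 ± 0.823 TPM in pod and 0.013 ± 0.0225 in grain at 20 DAF, a difference called in both scalings. The other 3 IPT genes were not tested.

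Of the 9 tested LOG family genes, 2 were lower and 1 higher in grain than in pod at 10 DAF, beside 16.8% and 17.8% of all genes tested. At 15 DAF 4 were lower and at 20 DAF 4, beside 30.1% and 56.7%. After scaling 3, 4 and 2 were lower, beside 16.9%, 18.5% and 20.1%. In Arabidopsis and rice these enzymes turn cytokinin nucleotides directly into active bases. The LOG1 gene Phvul.011G080600 had 8.46, 4.31 and 8.05 TPM in grain at 10 DAF, 1.16, 2.22 and 2.33 at 15 DAF and 0.256, 0.157 and 1.08 at 20 DAF. In pod it had 241, 487 and 127 TPM at 10 DAF, 134, 135 and 74.5 at 15 DAF and 160.1, 165 and 241 at 20 DAF. The lowest pod library was above the highest grain library at each stage. Grain was lower by a log2 difference of -5.01 at 10 DAF (SE 0.42, adjusted p = 2.06e-08), -5.29 at 15 DAF (SE 0.42, adjusted p = 1.22e-08) and -7.01 at 20 DAF (SE 0.42, adjusted p = 2.44e-10). After scaling these were -4.99, -4.81 and -6.19, all called. This gene alone made up 85% ± 4.32 of the summed TPM of the 12 LOG family genes in pod at 10 DAF and 18.7% ± 2.49 in grain at 10 DAF (SD, n = 3). Within grain it fell from 10 to 20 DAF (log2 difference -2.41, SE 0.42, adjusted p = 9.21e-05), also after scaling (-1.78). Its 15 DAF value in grain was called lower than at 10 DAF as deposited (-1.43), but not after scaling (-0.77) nor without grain 15 DAF replicate 1 (-1.23). Within pod its change from 10 to 20 DAF was not called.

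The second LOG1 gene, Phvul.005G134000, rose in pod and was not called between stages in grain. Its pod values were 4.66, 11.3 and 2.55 TPM at 10 DAF, 23.4, 26.2 and 4.79 at 15 DAF and 69.7, 49.9 and 37.0 at 20 DAF, where the 10 and 20 DAF libraries did not overlap. Grain stayed at 7.87, 4.17 and 4.66 TPM at 10 DAF, 3.10, 2.51 and 2.79 at 15 DAF and 4.28, 2.20 and 4.79 at 20 DAF. The rise in pod had a log2 difference of 3.04 (SE 0.51, adjusted p = 0.00053) and 2.82 after scaling, and it was not called in a fit of only the pod groups compared. The test of the difference between tissues in this change gave -3.50 (SE 0.72, adjusted p = 0.000999), and -2.2 after scaling, still called. The 15 DAF pod values were split, with replicate 3 as deposited in the range of the grain libraries of 10 DAF. The column of that replicate summed to only 436072 TPM, and the part of this low sum in the split was not tested.

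Of the 7 other tested LOG family genes, described only as putative lysine decarboxylases, some were high in the same tissue and some were not. Phvul.009G016000 was at 8.04 ± 4.93 TPM in pod and 1.21 ± 0.0633 in grain at 10 DAF, and grain was called lower at all 3 stages, at 20 DAF only as deposited (-2.0, against -0.96 after scaling). The 15 DAF call was lost without grain 15 DAF replicate 3 (-1.08), pod 15 DAF replicate 1 (-1.25) or pod 15 DAF replicate 2 (-1.11). Phvul.001G037400 went the other way at 10 DAF, with 4.42, 1.95 and 3.02 TPM in grain against 0.107, 0.046 and 0 in pod (log2 difference 1.93, SE 0.34, adjusted p = 0.000176), and rose in pod to 4.50, 1.56 and 0.999 TPM at 20 DAF (1.53, SE 0.34, adjusted p = 0.00514). Both calls held after scaling, and the rise in pod was lost in a fit of only the pod groups compared. Phvul.009G078800 varied within pod at 20 DAF widely, with 18.9, 62.9 and 8.71 TPM, and its difference from grain was called as deposited (-1.81) but neither after scaling (-0.52) nor without pod 20 DAF replicate 2 (-1.08). Phvul.007G269400 had 1.27, 14.4 and 0.280 TPM in pod at 10 DAF, where replicate c2 stood apart. Phvul.006G051400 was the most even, between 5.96 ± 2.02 TPM in grain at 20 DAF and 13.2 ± 1.93 in grain at 10 DAF.

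**Figure D2:**
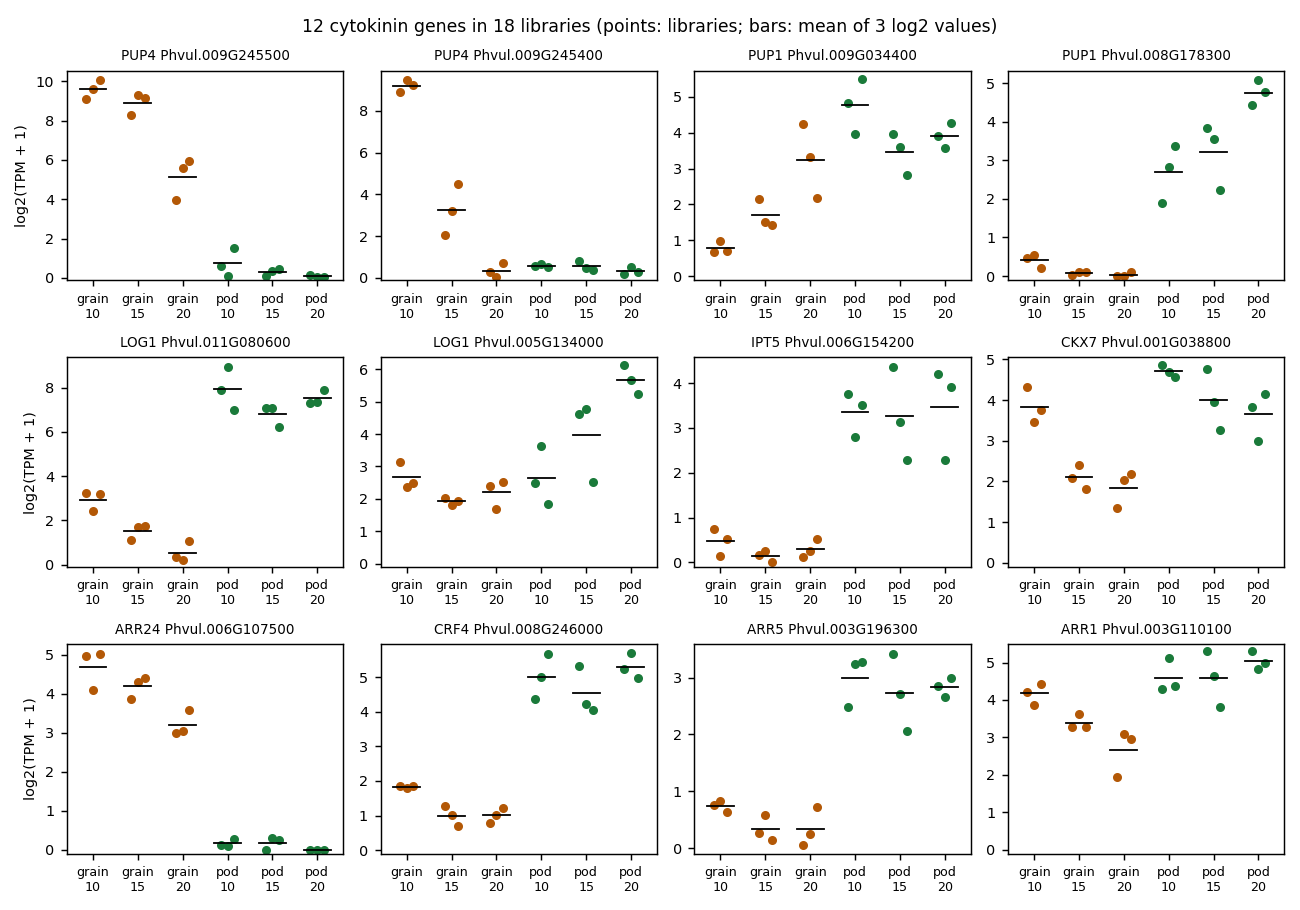
Values of 12 cytokinin genes as log2(TPM + 1) on the vertical axis in each of the 18 libraries (points, brown for grain and green for pod), with the mean of the 3 log2 values as a bar, by tissue and days after flowering. The PUP4 genes and ARR24 are high in grain, whereas LOG1 Phvul.011G080600, IPT5, CRF4, ARR5 and PUP1 Phvul.008G178300 are higher in every pod library than in every grain library.

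Degradation was represented by 12 CKX genes, of which 4 were tested. CKX7 Phvul.001G038800, the copy of an oxidase that is cytosolic in Arabidopsis, carried most of the CKX signal, 81.2% ± 8.24 of the sum in grain at 10 DAF and 80.7% ± 1.97 in pod at 10 DAF (SD, n = 3). Grain had 19.1, 9.92 and 12.4 TPM at 10 DAF, 3.26, 4.32 and 2.5 at 15 DAF and 1.54, 3.07 and 3.50 at 20 DAF. Pod had 28.3, 24.9 and 22.6 TPM at 10 DAF, 26.4, 14.4 and 8.54 at 15 DAF and 13.1, 6.99 and 16.6 at 20 DAF. In both tissues all 3 libraries of 10 DAF were above all 3 of 20 DAF. The fall in grain was called as deposited (log2 difference -1.99, SE 0.39, adjusted p = 0.00025), while after scaling it was -0.94, just under the size limit. The fall in pod missed the threshold as deposited (-1.06, SE 0.39, adjusted p = 0.0819) and was called after scaling (-1.19). Grain was lower than pod at 15 DAF in both scalings (-1.89, SE 0.39, adjusted p = 0.000601, and -1.35 after scaling), and at 20 DAF only as deposited (-1.81, and -0.64 after scaling). The other 3 tested genes had group means of at most 1.66 TPM. CKX3 Phvul.009G231700 was at 1.16, 1.68 and 2.13 TPM in pod at 20 DAF and at 0, 0 and 0.088 in grain, lower in grain in both scalings (-1.35, SE 0.36, adjusted p = 0.00299, and -1.03 after scaling). CKX2 Phvul.009G231800 had its higher values in grain, 1.77, 1.20 and 0.657 TPM at 15 DAF against 0.208, 0 and 0.051 in pod, a difference not called as deposited and called after scaling (1.30).

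Transport gave the largest differences. The PUP4 gene Phvul.009G245500, a member of a family whose proteins carry adenine and, for some Arabidopsis members, cytokinins, had 551, 790.0 and 1051 TPM in grain at 10 DAF, 309.5, 621 and 559 at 15 DAF and 14.3, 46.8 and 59.6 at 20 DAF. In pod it had 0.539, 0.073 and 1.88 TPM at 10 DAF, 0.064, 0.293 and 0.381 at 15 DAF and 0.110, 0.046 and 0.036 at 20 DAF. No pod library overlapped any grain library. Grain was higher by a log2 difference of 8.84 at 10 DAF (SE 0.45, adjusted p = 2.82e-11), 8.59 at 15 DAF (SE 0.45, adjusted p = 5.49e-11) and 5.06 at 20 DAF (SE 0.45, adjusted p = 4.11e-08), and by 8.55, 9.06 and 5.98 after scaling, all called. Within grain the fall from 10 to 20 DAF was -4.45 (SE 0.45, adjusted p = 3.09e-07), and -3.17 after scaling, called in both. The change from 10 to 15 DAF was not called.

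The other PUP4 gene, Phvul.009G245400, started at a like level and was already low at 15 DAF. It had 479.9, 704 and 601 TPM in grain at 10 DAF, 3.14, 8.22 and 21.8 at 15 DAF and 0.210, 0.038 and 0.653 at 20 DAF. Pod values were 0.468, 0.602 and 0.413 TPM at 10 DAF, 0.738, 0.376 and 0.300 at 15 DAF and 0.121, 0.456 and 0.199 at 20 DAF. By 20 DAF the grain and pod libraries overlapped. The log2 difference in grain was -5.95 at 15 against 10 DAF (SE 0.42, adjusted p = 1.79e-08) and -8.85 at 20 against 10 DAF (SE 0.42, adjusted p = 3.69e-11), and -5.12 and -8.24 after scaling, all called. Grain exceeded pod at 10 DAF (8.62, SE 0.42, adjusted p = 1.59e-11) and at 15 DAF (2.71, SE 0.42, adjusted p = 4e-05), and by 8.35 and 3.21 after scaling. The seed coat sums given above also went down in grain over these stages, and their part in the falls of both PUP4 genes was not tested.

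The ratio of both PUP4 genes within a library does not depend on any scaling between libraries. Phvul.009G245400 over Phvul.009G245500 was 0.871, 0.891 and 0.572 in the grain libraries of 10 DAF, 0.0101, 0.0132 and 0.0391 at 15 DAF, and 0.0146, 0.000812 and 0.0110 at 20 DAF. All 3 ratios of 10 DAF were above all those of 15 and 20 DAF, which overlapped each other. The mean log2 ratio differed by -5.46 between 15 and 10 DAF (exact two-sided permutation test, p = 0.1, the smallest that 3 against 3 libraries allow) and by -1.78 between 20 and 15 DAF (exact permutation p = 0.5). The ratio was put together from genes already described, and libraries without overlap always give that smallest p. The p-values therefore add nothing to the values themselves. Both genes together made up 99.3% ± 0.295 of the summed TPM of the 12 PUP genes in grain at 10 DAF and 2.59% ± 0.885 in pod at 10 DAF (SD, n = 3). How the authors' counting shared reads between genes of the same description is not given in the sources used here, so the split between copies is uncertain here and for the other gene families.

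**Figure D3:**
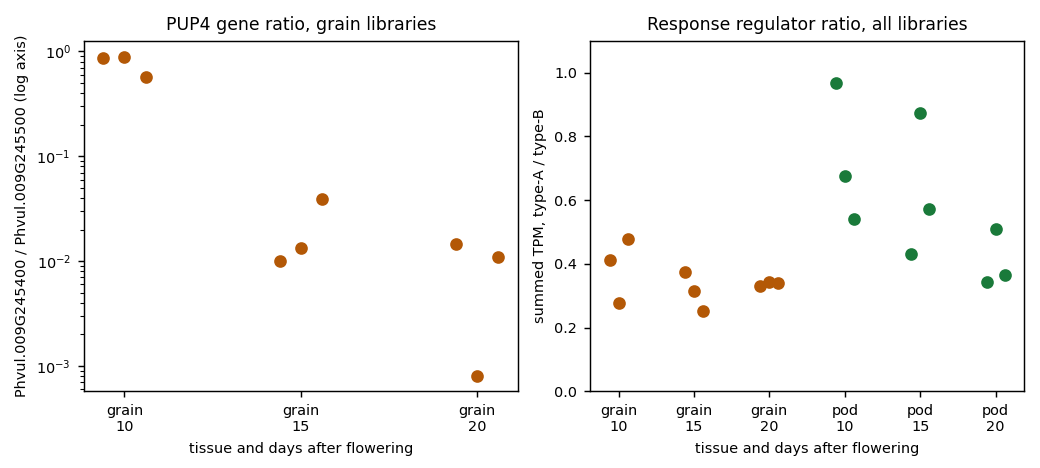
Left, the TPM of PUP4 Phvul.009G245400 divided by that of PUP4 Phvul.009G245500 in each grain library, on a log axis, by days after flowering. Right, the summed TPM of 11 type-A over 15 type-B response regulator genes in each of the 18 libraries, where the 3 grain groups average 0.389, 0.314 and 0.337 and the pod groups 0.729, 0.625 and 0.406.

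The PUP1 genes, copies of a permease that moves adenine and cytokinins in Arabidopsis, ran against each other. PUP1 Phvul.008G178300 had 2.70, 6.08 and 9.27 TPM in pod at 10 DAF, 13.2, 10.7 and 3.68 at 15 DAF and 20.4, 32.6 and 26.3 at 20 DAF, and never exceeded 0.450 TPM in a grain library. Its rise in pod from 10 to 20 DAF had a log2 difference of 2.06 (SE 0.38, adjusted p = 0.00116), 1.85 after scaling, and was not called in a fit of only the pod groups compared. Grain was lower at all 3 stages, up to -4.72 at 20 DAF (SE 0.38, adjusted p = 1.31e-08, and -4.21 after scaling). PUP1 Phvul.009G034400 was the 1 tested cytokinin gene called higher in grain at 20 than at 10 DAF as deposited. It had 0.615, 0.978 and 0.619 TPM in grain at 10 DAF, 3.42, 1.87 and 1.70 at 15 DAF and 17.9, 9.03 and 3.54 at 20 DAF, without overlap between 10 DAF and either later stage (20 against 10 DAF 2.46, SE 0.46, adjusted p = 0.000179, and 3.45 after scaling). Pod had 27.2, 14.7 and 43.8 TPM at 10 DAF, 14.6, 11.1 and 6.10 at 15 DAF and 14.1, 11 and 18.1 at 20 DAF. Grain was below pod at 10 DAF (-3.97, SE 0.46, adjusted p = 1.22e-06, and -3.79 after scaling), while at 20 DAF the libraries overlapped and no difference was called. The tissue difference in the change was 3.30 (SE 0.65, adjusted p = 0.000723), and 4.44 after scaling.

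The remaining 3 tested permease genes were lower in level. PUP10 Phvul.003G228300 rose in pod from 0, 0.148 and 0 TPM at 10 DAF to 1.42, 2.13 and 1.92 at 20 DAF (log2 difference 1.42, SE 0.23, adjusted p = 0.000367, and 1.13 after scaling, also called). PUP5 Phvul.009G194800 stayed between 6.03 and 6.42 TPM in its pod means and was lower in grain at 10, 15 and 20 DAF, at 2.37 ± 0.639, 1.06 ± 0.244 and 0.853 ± 0.0566 TPM. The 20 DAF call was lost after scaling (-1.90 as deposited, -0.97 after it), and the 10 DAF call (-1.05) without grain 10 DAF replicate 2 (-0.95) or 3 (-1.01) or pod 10 DAF replicate c2 (-0.80). PUP11 Phvul.008G051100 was at 10.3 ± 1.67 TPM in pod and 2.95 ± 1.69 in grain at 20 DAF, called only as deposited.

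Type-A response regulators, whose transcripts are widely read as a response to cytokinin, were mostly lower in grain than in pod where they were called. Of the 8 tested, 4 were lower in grain at 10 DAF, 4 at 15 DAF and 5 at 20 DAF, beside 16.8%, 30.1% and 56.7% of all genes tested. After scaling the counts were 4, 3 and 2, beside 16.9%, 18.5% and 20.1% of all genes. The counts of 20 DAF, 62.5% of the 8 as deposited, were thus near the share of all genes in both scalings. The highest, ARR9 Phvul.001G125800, had 11.7, 8.58 and 12.4 TPM in grain at 10 DAF, 6.97, 6.41 and 5.56 at 15 DAF and 2.92, 5.71 and 7.68 at 20 DAF. Pod had 25.9, 16 and 20.6 TPM at 10 DAF, 15.7, 38.5 and 16.2 at 15 DAF and 11.7, 14.6 and 11.7 at 20 DAF. Grain lay below pod without overlap at 15 DAF (log2 difference -1.63, SE 0.35, adjusted p = 0.000908, and -1.05 after scaling). At 20 DAF the difference was -1.16 as deposited and 0.10 after scaling, so its direction depended on the scaling. It was also not called without grain 20 DAF replicate 1 (-0.84).

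The ARR5 genes Phvul.003G196300 and Phvul.003G196500 were lower in grain at every stage in both scalings. Phvul.003G196300 had 0.687, 0.774 and 0.560 TPM in grain at 10 DAF, 0.208, 0.494 and 0.096 at 15 DAF and 0.042, 0.182 and 0.651 at 20 DAF. Pod had 4.58, 8.46 and 8.65 TPM at 10 DAF, 9.68, 5.54 and 3.19 at 15 DAF and 6.26, 5.31 and 6.93 at 20 DAF, and no pod library overlapped a grain library. The log2 differences were -2.26, -2.40 and -2.49 at 10, 15 and 20 DAF (each SE 0.32, adjusted p = 1.51e-05, 8.04e-06 and 3.18e-06), and -2.10, -2.16 and -1.88 after scaling. For Phvul.003G196500 they were -1.33, -2.03 and -2.23, and -1.29, -1.65 and -1.34 after scaling. Another copy, Phvul.009G182800, had 11.1, 13.8 and 7.99 TPM in pod at 10 DAF against 2.75, 1.45 and 6.89 in grain (-1.49, SE 0.40, adjusted p = 0.00618, and -1.46 after scaling), a call lost without grain 10 DAF replicate 2 (-1.11), and it was not called at the later stages.

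ARR9 Phvul.009G127000 was the 1 type-A gene that fell in grain in both scalings. It had 8.84, 1.43 and 9.50 TPM in grain at 10 DAF, 0.330, 2.09 and 0.266 at 15 DAF and 0, 0 and 0.139 at 20 DAF (20 against 10 DAF -2.59, SE 0.57, adjusted p = 0.000744, and -2.25 after scaling). In pod it went from 6.47 ± 3.62 to 2.61 ± 2.08 TPM, with overlap and no call. ARR3 Phvul.003G056000 was the exception in tissue, with 13.1, 11.1 and 4.35 TPM in grain at 15 DAF against 5.41, 4.06 and 1.94 in pod. That difference (1.09, SE 0.42, adjusted p = 0.0405) came with overlapping libraries and was not called without either of grain 15 DAF replicates 1 and 2 (0.82 and 0.93) or pod 15 DAF replicates 2 and 3 (1.16 and 0.77). After scaling it was 1.67 and called. ARR3 Phvul.002G076900 fell in pod from 7.65, 3.42 and 2.08 TPM at 10 DAF to 0.167, 2.37 and 0.329 at 20 DAF (-1.5, SE 0.41, adjusted p = 0.02, and -1.41 after scaling), with overlapping libraries, a call lost without pod 10 DAF replicate c1 (-1.09), pod 20 DAF replicate 1 (-1.21) or pod 20 DAF replicate 3 (-1.31).

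The type-B response regulators were led by 1 gene. ARR2 Phvul.003G017300 was the most abundant response regulator, with 51.9, 41.6 and 43.9 TPM in grain at 10 DAF, 32.2, 34.0 and 15.6 at 15 DAF and 16.5, 27.7 and 26.4 at 20 DAF. Pod had 33.9, 26.5 and 57.5 TPM at 10 DAF, 35.5, 19.1 and 25.0 at 15 DAF and 53.3, 28.1 and 37.5 at 20 DAF. None of the 7 comparisons called it in either scaling. No type-B gene was called by limma between tissues at 10 DAF, where 1 of the 7 had an unadjusted p under 0.05. At 20 DAF 5 of the 7 tested were lower in grain as deposited, beside 56.7% of all genes, and 1 after scaling, ARR1 Phvul.003G110100, beside 20.1%. That gene had 17.5, 13.7 and 20.6 TPM in grain at 10 DAF and 2.86, 7.54 and 6.82 at 20 DAF, against 18.5, 33.9 and 19.6 and then 38.8, 27.2 and 30.9 in pod. The grain and pod libraries of 20 DAF were far apart (log2 difference -2.37, SE 0.38, adjusted p = 2.96e-05, and -1.08 after scaling). Within grain 5 of the 7 fell from 10 to 20 DAF as deposited, beside 52.9% of all genes. After scaling limma called 0 of them, beside 16.7% of all genes, with 1 lower and 1 higher at an unadjusted p under 0.05.

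ARR2 Phvul.003G017000 was the 1 type-B gene whose stage change differed between tissues in both scalings. Grain went from 12.2, 13.3 and 13.5 TPM at 10 DAF to 2.04, 3.67 and 2.98 at 20 DAF, and pod from 5.58, 8.91 and 7.42 to 13.5, 8.38 and 11.6. The grain libraries of both stages were far apart and the pod libraries overlapped. The tissue difference in the change was -2.41 (SE 0.43, adjusted p = 0.000392), and -1.17 after scaling.

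The summed TPM of the type-A over the type-B genes, a ratio within a library, was 0.411, 0.277 and 0.479 in grain at 10 DAF and 0.969, 0.676 and 0.542 in pod at 10 DAF, without overlap. At 15 DAF grain had 0.373, 0.315 and 0.253 and pod 0.431, 0.874 and 0.571, again without overlap. At 20 DAF grain had 0.330, 0.343 and 0.340, and pod 0.343, 0.509 and 0.365, which nearly met. These sums were put together from genes already described, so the ratio is given as a description without a test.

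The type-C regulator ARR24 Phvul.006G107500, of a class that lacks the output domain of the type-B proteins, was a grain gene throughout. Grain had 30.3, 16.1 and 31.3 TPM at 10 DAF, 13.6, 18.9 and 20.0 at 15 DAF and 6.98, 7.28 and 10.9 at 20 DAF. Pod had 0.094, 0.061 and 0.208 TPM at 10 DAF, 0, 0.243 and 0.181 at 15 DAF, and was listed at 0 in all 3 libraries of 20 DAF. Grain was higher at 10 DAF (log2 difference 4.53, SE 0.28, adjusted p = 4.18e-10) and at 15 DAF (4.01, SE 0.28, adjusted p = 2.54e-09), and by 4.19 and 4.47 after scaling. At 20 DAF it was also called higher by limma (adjusted p = 3.37e-08), with no fold given against a group at 0. Its fall in grain from 10 to 20 DAF was -1.48 as deposited and -0.27 after scaling, where it was not called. A second ARR24 gene, Phvul.001G168500, had its highest group mean, 1.25 ± 1.18 TPM, in pod at 20 DAF, and was listed at 0 in the grain libraries of 15 and 20 DAF. The other 2 were listed at 0 in all 18 libraries.

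Among the response factors, CRF4 Phvul.008G246000 marked the pod. It had 2.59, 2.49 and 2.65 TPM in grain at 10 DAF, 1.42, 1.01 and 0.628 at 15 DAF and 0.731, 1.02 and 1.33 at 20 DAF. Pod had 19.5, 31.3 and 49.9 TPM at 10 DAF, 38.9, 17.8 and 15.6 at 15 DAF and 36.6, 50.8 and 30.4 at 20 DAF, all above every grain library. The log2 differences were -3.17 at 10 DAF (SE 0.36, adjusted p = 9.72e-07), -3.54 at 15 DAF (SE 0.36, adjusted p = 3.19e-07) and -4.29 at 20 DAF (SE 0.36, adjusted p = 2.03e-08), and -3.11, -3.13 and -3.27 after scaling.

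The CRF4 copies Phvul.002G162500 and Phvul.006G080000 fell early in grain. Phvul.002G162500 had 5.55, 7.28 and 6.43 TPM at 10 DAF, 0.085, 0.319 and 0.345 at 15 DAF and 0.759, 1.44 and 0.287 at 20 DAF. The fall by 15 DAF was -2.57 (SE 0.34, adjusted p = 1.76e-05), and -2.14 after scaling. Phvul.006G080000 had 4.92, 7.21 and 5.17 TPM at 10 DAF, 0.544, 0.800 and 1.01 at 15 DAF and 0.327, 0.640 and 0.176 at 20 DAF (15 against 10 DAF -1.91, SE 0.32, adjusted p = 0.000188, and -1.36 after scaling). In both genes the 10 DAF libraries stood above all later grain libraries, and both falls from 10 to 20 DAF were called in either scaling. Pod libraries of these genes had 3.64, 1.11 and 5.57 and 3.86, 4.73 and 2.34 TPM at 10 DAF, and 1.33, 1.05 and 1.1 and 2.06, 5.12 and 1.40 at 20 DAF, neither change being called. CRF2 Phvul.002G295700 had 1.23, 2.80 and 0.851 TPM in grain at 20 DAF and was listed at 0 in the pod libraries of that stage. CRF4 Phvul.009G137000 was at 4.70, 4.91 and 4.57 TPM in pod and 0.743, 0.886 and 0.561 in grain at 10 DAF (-1.73, SE 0.41, adjusted p = 0.00248, and -1.60 after scaling). Its grain libraries had 0.125, 0.094 and 0.110 TPM at 15 DAF and 0.307, 3.31 and 0.210 at 20 DAF. CRF4 Phvul.008G159400 had 0.915, 0.333 and 0.576 TPM in grain at 10 DAF and 0.921, 2.58 and 0.339 at 20 DAF. After scaling 2 of the 6 tested CRF genes were called lower and 1 higher in grain at 20 than at 10 DAF, beside 16.7% and 8.39% of all genes.

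The TOC1 genes, part of the clock and not known as cytokinin genes, are reported because their description met the rule. Phvul.009G185500 had 13.5, 14.3 and 21.2 TPM in grain at 10 DAF, 13.1, 16 and 13.7 at 15 DAF and 8.02, 10.9 and 11.2 at 20 DAF, and 7.68, 11.7 and 12.6, then 20.3, 15.3 and 10.7, then 19.7, 17.3 and 18.7 in pod. Neither tissue's change from 10 to 20 DAF was called. Phvul.003G188400 had 5.05, 4.78 and 4.81 TPM in grain against 1.02, 1.1 and 0.948 in pod at 10 DAF (1.54, SE 0.29, adjusted p = 0.000314), called in both scalings.

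The counts of called genes were then read against the whole table. From 10 to 20 DAF in grain 17 of the 50 tested cytokinin genes fell and 1 rose, 34% and 2% of those tested, against 52.9% and 2.67% of all genes tested. After scaling 6 fell and 3 rose, against 16.7% and 8.39% of all genes. The 6 that fell in both scalings were both PUP4 genes, the CRF4 genes Phvul.002G162500 and Phvul.006G080000, ARR9 Phvul.009G127000 and LOG1 Phvul.011G080600, and the 1 that rose in both was PUP1 Phvul.009G034400. From 10 to 15 DAF 9 fell and 0 rose, against 34.4% and 1.91% of all genes, and after scaling 3 fell and 0 rose, against 10.1% and 5.58%. At an unadjusted p under 0.05 limma gave 0 higher as deposited and 4 after scaling. The median of the 50 was -0.68 at 20 against 10 DAF as deposited and -0.05 after scaling, beside -1.08 and -0.11 for all genes.

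In pod from 10 to 20 DAF 4 genes rose and 3 fell, against 5.38% and 6.72% of all genes, and after scaling 4 rose and 4 fell, against 4.64% and 8.03%. The genes that rose in both scalings were LOG1 Phvul.005G134000, PUP1 Phvul.008G178300, PUP10 Phvul.003G228300 and Phvul.001G037400, described only as a putative lysine decarboxylase. They were 8% of the 50 tested in either scaling, near the share of all genes, and are not read as a result about their roles. A fit of only the pod groups compared called 1 gene higher. The count of 3 falling genes rested on single libraries, since it was 0 without pod 10 DAF replicate c1, 0 without pod 20 DAF replicate 1 and 1 without pod 20 DAF replicate 3. The median of the 50 was 0.05, beside 0.10 for all genes.

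Between tissues at 10 DAF, where the general shift was smallest, 12 of the 50 were lower in grain and 5 higher, against 16.8% and 17.8% of all genes, and after scaling 13 and 5, against 16.9% and 16.5%. At 15 DAF 16 were lower and 4 higher, against 30.1% and 8.93%, and after scaling 13 and 5, against 18.5% and 14.5%. At 20 DAF 26 were lower and 3 higher, against 56.7% and 6.25%, and after scaling 10 and 5, against 20.1% and 14.1%. The medians of the 50 were -0.27, -0.49 and -1.1 as deposited and -0.27, -0.24 and -0.28 after scaling. For all genes after scaling the medians were -0.01, -0.04 and -0.07.

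The tissue difference in the change from 10 to 20 DAF was lower in grain for 19 of the 50 and higher for 1, against 52.8% and 3.69% of all genes. After scaling the counts were 5 and 4, against 12.7% and 9% of all genes. The 5 lower in both scalings were both PUP4 genes, PUP1 Phvul.008G178300, LOG1 Phvul.005G134000 and ARR2 Phvul.003G017000, and the 1 higher in both was PUP1 Phvul.009G034400. The count of 1 was 3 without pod 10 DAF replicate c2, 4 without c3, 2 without grain 20 DAF replicate 3 and 3 without pod 20 DAF replicate 2. The comparisons share libraries, so their values are given side by side and not correlated.

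**Figure D4:**
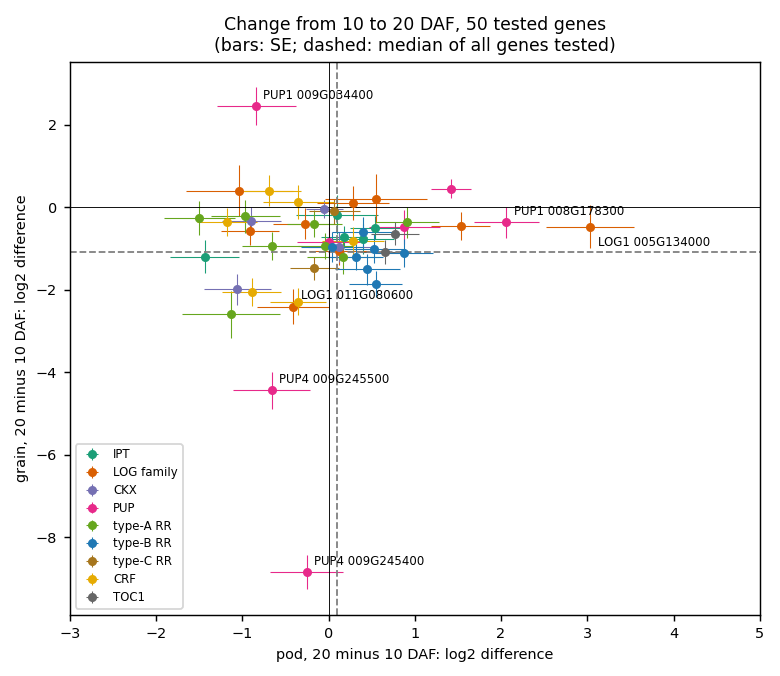
Log2 difference from 10 to 20 DAF in pod (horizontal) and in grain (vertical) for the 50 tested cytokinin genes, coloured by role, with SE bars and dashed lines at the median of all genes tested, 0.10 and -1.08. Both PUP4 genes lie far below the crossing of the dashed lines, PUP1 Phvul.009G034400 above it, and LOG1 Phvul.005G134000 and PUP1 Phvul.008G178300 to the right.

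**Figure D5:**
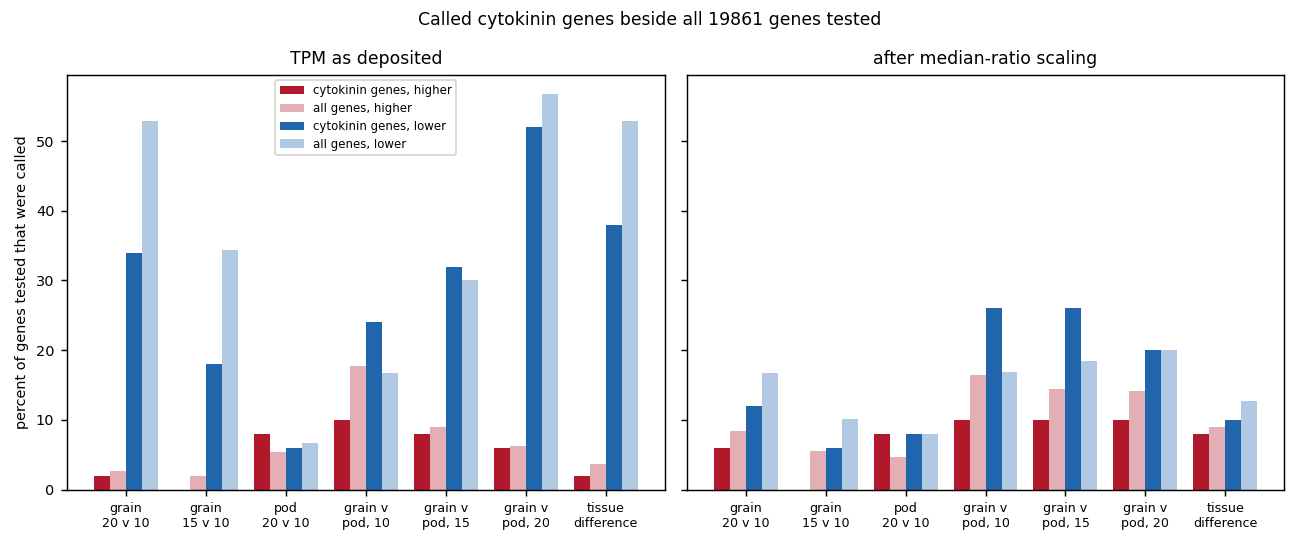
Percent of the 50 tested cytokinin genes (full colour) and of all 19861 genes tested (pale) called higher (red) or lower (blue) in each of the 7 comparisons, for TPM as deposited (left) and after median-ratio scaling (right). The tissue difference is that in the change from 10 to 20 DAF, and the share of all genes called lower in grain at 20 against 10 DAF goes from 52.9% to 16.7% with the scaling.

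The rest of the pathway, 38 genes for receptors, phosphotransfer proteins, further metabolism, transport and the target cyclins D3, had 29 tested members. In grain from 10 to 20 DAF 20 fell and 0 rose in the limma fit, where 1 was higher at an unadjusted p under 0.05, and after scaling 6 fell and 2 rose. Of all genes tested 52.9% fell and 2.67% rose as deposited, and 16.7% and 8.39% after scaling. In pod 5 fell and 2 rose, beside 6.72% and 5.38% of all genes, and 7 and 2 after scaling, beside 8.03% and 4.64%. Against pod, grain was lower in 8, 14 and 16 genes at 10, 15 and 20 DAF and higher in 7, 4 and 4, beside 16.8%, 30.1% and 56.7% of all genes lower and 17.8%, 8.93% and 6.25% higher. After scaling it was lower in 8, 12 and 14 and higher in 7, 8 and 6, beside 16.9%, 18.5% and 20.1% lower and 16.5%, 14.5% and 14.1% higher.

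The receptor genes were moderate in level. AHK3 Phvul.L002746 ran from 4.03 ± 1.48 TPM in grain at 20 DAF to 20.3 ± 3.91 in pod at 20 DAF, and its lower level in grain at that stage was called as deposited and not after scaling. AHK2 Phvul.008G285800 was at 1.56 ± 0.464 and 11.4 ± 4.37 TPM in the same groups, lower in grain in both scalings. Among phosphotransfer proteins, which carry the phosphate from receptor to regulator, AHP1 Phvul.003G099000 had 0.263, 0.475 and 1.03 TPM in grain at 10 DAF and 3.45, 5.86 and 11.4 at 15 DAF, a rise called in both scalings (2.21, SE 0.48, adjusted p = 0.00139, and 2.77 after scaling). By 20 DAF grain was back at 1.17, 2.90 and 2.21 TPM, below every grain library of 15 DAF. Its difference from 10 DAF was then not called as deposited (0.95) and called after scaling (1.72). Pod had 6.33, 24.7 and 9.99 TPM at 10 DAF, above every grain library of that stage. AHP1 Phvul.006G159300 was at 8.19 ± 2.67 TPM in grain and 56.4 ± 22.1 in pod at 20 DAF, also lower in grain in both scalings.

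Among the transporters outside the rule, ABCG14 Phvul.002G121200, an exporter that loads cytokinins for transport from root to shoot in Arabidopsis, had 61.7, 18.4 and 26.6 TPM in pod at 10 DAF against 1.08, 0.414 and 0.363 in grain (-4.34, SE 0.39, adjusted p = 5.99e-08, and -4.15 after scaling) and stayed lower in grain at 15 and 20 DAF in both scalings. Summed TPM of 50 phloem and xylem marker genes was 2011 to 2297 in pod and 734.8 to 1047 in grain at 10 DAF, and its part in that difference was not tested. ENT1 Phvul.011G013500, a nucleoside transporter, was at 116 ± 36.2 TPM in pod and 12.7 ± 5.72 in grain at 20 DAF. CYP735A1 Phvul.008G005600, which makes trans-zeatin forms, had pod means of 2.71 to 4.90 TPM and grain means under 1 TPM, lower in grain at all 3 stages in both scalings. The 10 DAF call of this gene (-1.24) was lost without grain 10 DAF replicate 2 (-1.07) or 3 (-1.21) or pod 10 DAF replicate c1 (-0.88).

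The glucosyltransferases UGT73C1 Phvul.001G182300 and DOGT1 (UGT73C5) Phvul.001G182900, whose Arabidopsis counterparts can glucosylate cytokinins among other substrates, rose in pod. UGT73C1 had 1.21, 3.15 and 1.12 TPM in pod at 10 DAF, 14.6, 18.4 and 2.44 at 15 DAF and 76.8, 31.6 and 28.8 at 20 DAF, without overlap between 10 and 20 DAF (log2 difference 3.97, SE 0.49, adjusted p = 3.01e-05). It was listed at 0 in the grain libraries of 20 DAF. DOGT1 had 3.69, 34.8 and 4.88 TPM at 10 DAF, 33.6, 23.1 and 12.9 at 15 DAF and 66.1, 51.7 and 49.1 at 20 DAF in pod (2.5, SE 0.52, adjusted p = 0.00322), where replicate c2 of 10 DAF stood with the later libraries. Both rises held after scaling, at 3.69 and 2.29, and that of DOGT1 was lost in a fit of only the pod groups compared. Another UGT73C1 gene of the list, Phvul.007G152800, went the other way. Its pod libraries had 48.8, 39.4 and 40.5 TPM at 10 DAF, 47.0, 32.5 and 19.8 at 15 DAF and 14.3, 14.5 and 14.9 at 20 DAF, and those of 10 and 20 DAF did not overlap (-1.49, SE 0.37, adjusted p = 0.00988, and -1.63 after scaling, also called).

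The purine salvage list held 9 genes. APT5 Phvul.009G092200, an adenine phosphoribosyltransferase of the kind that can also act on cytokinin bases, was at 281 ± 68.4 TPM in grain and 69.0 ± 15.8 in pod at 10 DAF (2.0, SE 0.46, adjusted p = 0.00186), higher in grain in both scalings. APT1 Phvul.009G070900 fell in grain from 195 ± 49.1 TPM at 10 DAF to 34.5 ± 13.7 at 20 DAF (-2.51, SE 0.40, adjusted p = 3.96e-05, and -1.23 after scaling). Of the 5 tested cyclin D3 genes, targets of cytokinin in cell division, 4 fell in grain and 3 in pod, as deposited and after scaling. Of all genes 52.9% and 6.72% fell as deposited, and 16.7% and 8.03% after scaling. CYCD3;2 Phvul.002G015500 was called in neither tissue. CYCD3;1 Phvul.007G038400 fell in grain (-3.02) and was not called in pod (0.04). That tissue difference was called in both scalings (-3.07, and -2.26 after scaling). The 2 highest genes of the list fell in both tissues. CYCD3;1 Phvul.001G024900 went from 36.1, 52.7 and 28.1 TPM to 1.73, 2.31 and 3.6 in grain and from 3.72, 5.99 and 2.46 to 0.068, 0.734 and 0.311 in pod between 10 and 20 DAF. The falls were -3.48 (SE 0.35, adjusted p = 2.77e-07) in grain and -1.85 (SE 0.35, adjusted p = 0.00135) in pod, and -2.41 and -1.69 after scaling. CYCD3;2 Phvul.009G067600 fell from 63.0 ± 17.5 to 4.15 ± 1.36 TPM in grain and from 70.8 ± 34.0 to 9.10 ± 6.66 in pod, both called in both scalings. The pod falls of Phvul.001G024900 and Phvul.009G067600 were not called in a fit of only the pod groups compared. The dividing-cell marker sums given above moved with these genes in grain, and their part in the result was not tested.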

How the data were processed

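RNA sequencing of grain and pod at 3 stages was analysed from 1 table in which the authors deposited TPM for 27420 genes in 18 libraries, with a description per gene (none for 4644). TRIzol extraction of total RNA and a SMARTER mRNA library kit are named, per the labels' protocols. The sources used here do not give the aligner, the counter or the build. Gene identifiers matched 0 entries of the reference gene table, so no sequence or coordinate is given. The pod 10 DAF titles and columns carry different numbers, so those columns are called c1 to c3.

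Genes reaching 1 TPM in 3 or more libraries were tested on log2(TPM + 1) in a limma (version 3.58.1, R 4.3.3) fit of 6 group means with the trend option of its empirical Bayes step and 12 residual degrees of freedom, with Benjamini-Hochberg adjustment over all 19861 genes. Roles and marker lists came from the descriptions. The members and lists were chosen with earlier results of these data known. Named genes were the 3 highest of each role, every gene at 50 TPM or more, up to 3 called genes each way per comparison with at least 5 TPM and no overlap, and the 2 highest of each wider pathway list. Further members were named after their values were seen. The fit was tested on simulated data for the grain contrast of 20 with 10 DAF (19861 genes). It recovered 47 of 100 genes planted at a log2 of 1.5 and 94 of 100 planted at 3, 0 with the wrong sign, and made 7 false calls. The planted genes all had a mean log2(TPM + 1) over 3, and the simulated libraries carried no general shift. The simulation therefore does not cover genes of lower level or a shift like that in grain. The alternatives were another pseudocount, other filters, other scalings, a fit of only the groups compared, a replicate block, and the omission of each library.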

Additional observations from a re-analysis of the deposited data

Results flagged for a closer look

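The change from 10 to 20 DAF differed between grain and pod, by the interaction of the limma fit, in 13 of the 28 listed genes named by rule. Of all genes tested, 52.8% were called lower and 3.69% higher in this comparison. Some of the 28 were named because their difference in this comparison was among the largest, and the TOC1 genes are among the 13. The values are differences of log2 changes on the log2(TPM + 1) scale, grain minus pod, beside a median of -1.25 over all genes tested, so several of them lie near that general shift.

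The values farthest from it were those of both PUP4 genes, -8.60 for Phvul.009G245400 and -3.79 for Phvul.009G245500, of LOG1 Phvul.005G134000 at -3.50, and of PUP1 Phvul.009G034400 at 3.30. PUP1 Phvul.008G178300 was at -2.43 and the type-B gene ARR2 Phvul.003G017000 at -2.41. After median-ratio scaling these 6 were still called, at -8.00, -2.57, -2.2, 4.44, -2.12 and -1.17 in the same order.

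The other 7 were not called after that scaling. They were LOG1 Phvul.011G080600 at -2.0, ARR1 Phvul.003G110100 at -1.95, CRF4 Phvul.006G080000 at -1.94, TOC1 Phvul.003G188400 at -1.73 and Phvul.009G185500 at -1.41, ARR24 Phvul.006G107500 at -1.32 (listed at 0 in pod at 20 DAF) and CRF4 Phvul.002G162500 at -1.17. The last kept its call under 5 of 20 alternatives.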

How the results depend on the processing

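With median-ratio scaling the genes called were 3 higher and 6 lower in grain at 20 against 10 DAF, 3 lower at 15 against 10 DAF, 5 higher and 10 lower in grain against pod at 20 DAF, and 4 higher and 5 lower in the tissue difference in the change. The shares of all genes called in that scaling were, in the same order, 8.39% and 16.7%, 10.1%, 14.1% and 20.1%, and 9% and 12.7%. Without the 50 most abundant genes they were 7 lower at 20 against 10 DAF, 2 higher and 3 lower at 15 against 10 DAF, 14 lower in grain against pod at 20 DAF, and 4 higher and 7 lower in the tissue difference. A pseudocount of 0.1 TPM gave 1 higher and 15 lower in grain at 15 against 10 DAF and 2 higher in the tissue difference. A filter at 5 TPM gave 2 higher and 0 lower in pod at 20 against 10 DAF and 3 higher in grain against pod at 10 DAF. A fit of only the groups compared gave 1 higher and 0 lower in pod at 20 against 10 DAF. ARR9 Phvul.001G125800 in grain against pod at 20 DAF was 0.10 after median-ratio scaling and -1.16 as deposited. For every other setting of this section, the omission of libraries included, the share of all genes called is not given here. Those counts therefore cannot be set against the whole table. The cause of these changes was not tested.

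With each library left out in turn, the counts ran from 1 to 1 higher and 12 to 22 lower in grain at 20 against 10 DAF, 0 to 0 and 6 to 12 at 15 against 10 DAF, 4 to 5 and 0 to 4 in pod at 20 against 10 DAF, 5 to 6 and 10 to 15, 3 to 5 and 11 to 17, and 3 to 3 and 24 to 29 in grain against pod at 10, 15 and 20 DAF, and 1 to 4 and 15 to 22 in the tissue difference. Of the called values of named genes, 27 lost their call and 1 reversed with median-ratio scaling, and 23 lost it without the 50 most abundant genes, against at most 4 under each other setting that kept all libraries.

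Deviations of same-numbered libraries from their group means were weakly correlated: over 30 pairs r ran from -0.165 to 0.237, with 9 over 0.1. The other pairs ran from -0.283 to 0.247. With 3 libraries per group these values cannot decide whether same-numbered libraries came from the same plants. A replicate block in the 15 libraries with matching numbers left the counts at 17 lower and 1 higher in grain at 20 against 10 DAF, 9 and 0 at 15 against 10 DAF, 16 and 4 in grain against pod at 15 DAF, and 26 and 3 at 20 DAF. No block could be fitted for comparisons with pod at 10 DAF, whose columns carry no matching number. Unknown depth limits statements on genes near 0, where a value of 0 may be a low level.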
